A study of Mus musculus with 44 samples.

Results

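The genes described here encode neurofilament subunits (Nefl, Nefm, Nefh, Ina) and proteins that bind microtubules or tubulin in neurons (Map1a, Map1b, Map2, Mapt, Stmn2, Map6). They were chosen by name, with no measured value in the rule, though earlier results of these data were known. Each library was searched for the RefSeq accession that belongs to one of these 10 mouse symbols. All 10 were found, each as 1 transcript, among 17158 listed transcripts. The series combined ribosome profiling (sequencing of ribosome-protected fragments, RPFs), RNA-seq and poly(A)-tail sequencing of mouse brain, and asked how tail length and translational efficiency (TE, the RPF level per RNA level of a gene) relate in neurons. For tissues and cultures each condition had 1 library of each kind, so those comparisons have no replicate check. Their intervals cover counting error only. Visual cortex was measured by tail sequencing alone, in 4 mice kept in the dark and 4 exposed to light.

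The tissues were hippocampus of embryos at embryonic day 16, dissected embryo by embryo, and hippocampus and cortex of adult males, each taken from a single mouse. Whether embryonic hippocampi were pooled afterwards was not given in the sources used here. Cultures were made from cortices of male and female pups at postnatal day 0 to 1 and were treated with AraC, which kills dividing cells, for 24 h beginning 2 days after plating. One set was harvested at 10 days in vitro (DIV10), either unstimulated or after 10 or 30 min of KCl, which depolarizes neurons. Another was harvested at DIV14, either unstimulated or after 30 min of BDNF, a neurotrophin, or of glutamate with glycine (glu/gly). Other DIV14 cultures carried a lentivirus, added at DIV5, that expressed EGFP from the synapsin promoter, alone (GFP) or with the microRNA miR-1 or miR-155 in the EGFP 3′ UTR. The visual-cortex mice, aged 6 to 7 weeks, spent 1 week in the dark and then either stayed there or had 1 h of light; their RNA came from an earlier study. The strain named in the study's paper is C57BL6J. RNA for RNA-seq was poly(A)-selected for both hippocampi and depleted of rRNA for adult cortex and 6 cultures. This step was not given in the sources used here for the other 3 cultures.

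Neurofilaments are the intermediate filaments of neurons, heteropolymers of the light, medium and heavy subunits with α-internexin, and they fill large axons. α-Internexin is the early subunit of developing neurons, and the heavy subunit is acquired as axons mature. Among the microtubule-binding proteins, Map1b marks growing axons and Map1a mature neurons, Map2 lies in dendrites, tau lies in axons, stathmin-2 binds free tubulin in growth cones and Map6 (STOP) makes microtubules resistant to cold.

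In the mouse assembly GRCm38.p6, Nefl (light subunit) lies at chr14:68083863-68089095 on the plus strand. Nefm (medium subunit) lies at chr14:68119545-68125004 on the minus strand, 30449 bases away. Nefh (heavy subunit) is at chr11:4938754-4948064 (minus) and Ina (α-internexin) at chr19:47014681-47025327 (plus). Map1a is at chr2:121289602-121310832 (plus), Map1b at chr13:99421464-99516602 (minus) and Map2 at chr1:66175329-66442583 (plus). Mapt (tau) is at chr11:104231436-104332090 (plus), Stmn2 (stathmin-2) at chr3:8509527-8561604 (plus) and Map6 at chr7:99267447-99320352 (plus). Map1a and Map1b have the longest reading frames of the set, 9045 and 7395 nt, and Stmn2 the shortest, 540 nt, against a median of 1359 nt over all listed transcripts. The Map2 transcript that was counted is a short form with a reading frame of 1497 nt, so reads on exons found only in the long form are not in these values. The 3′ UTRs ran from 492 nt (Nefm) to 4342 nt (Map1b), and 8 of the 10 were longer than the median of 927 nt.

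Tail sequencing reads the end of each mRNA, so the last 30 bases of each annotated transcript are given here 5′ to 3′ from RefSeq. They are shown because the methods counted tags on the annotated 3′ UTR, so an mRNA that ends elsewhere can go uncounted. Capitals mark the poly(A) signals AATAAA or ATTAAA, searched on the transcript strand.
Nefl: ataaaatattgaaaaaaaatctaaattcaa
Nefm: tgctcAATAAAggtcatactggaaacataa
Nefh: gcAATAAAaccaagtgcttctgaAATAAAa
Ina: aatctaagaaATTAAAagtcattaatccta
Map1a: tatATTAAAtctttgctcatatctgtacaa
Map1b: cacAATAAAatacaaagtggcaaaagttca
Map2: ttttgcaaAATAAAattgcttgtcacctaa
Mapt: tttggaAATAAAgttattactctgAATAAA
Stmn2: gatgAATAAAgaattggagttctgtgaact
Map6: ccagttataAATAAAtgctaaagacaaaca
One of the signals was present in 9 of the 10 ends, Nefl being the exception, and in 67.4% of 16680 transcripts. Nefl also gave few tags for its RNA level: its ratio of tags to RNA lay between percentiles 3.69 and 14.7 of all genes in the 12 libraries. Ina gave 0 or 1 tag in every library and lay between percentiles 0.0671 and 3.51 in the 10 libraries where the ratio could be ranked. Map2 stood at the other end, at percentiles 82.0 to 97.8. Tag counts of Nefl and Ina therefore say little about these genes, and neither reached the 50 tags required here for a tail length.

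RNA-seq libraries held 448022 to 7689624 reads on the listed genes, RPF libraries with a known condition 2812215 to 23212489, TAIL-seq libraries (adult cortex and cultures) 389654 to 1057812 tags, and the PAL-seq libraries 86841 to 221876 tags in the hippocampi and 1233538 to 4812273 in visual cortex. The 10 genes took 0.347 to 1.14% of RNA-seq reads and 1.14 to 1.65% of RPF reads. Levels below are in scaled RPKM, meaning RPM (reads-per-million) per kb of counted reading frame after scaling libraries by the median of ratios, so that levels of different genes can be compared. Cell-type markers differed among the groups. In RNA-seq RPM, a list of neuron markers summed to 476 in embryonic hippocampus, to 1197 to 2422 in the cultures and to 5656 to 5698 in adult tissue. Markers of progenitors and dividing cells summed to 2231, 163 to 748 and 61.4 to 62.5. Those of oligodendrocytes summed to 25.9, 41.3 to 95.7 and 1315 to 1947, those of astrocytes to 756, 1165 to 2217 and 3319 to 3781, and those of microglia to 64.4, 0.947 to 28.2 and 294 to 335. In bulk samples, fewer cells of a type and less RNA per cell cannot be told apart. Changes between ages, or between culture and tissue, stand beside these marker differences, whose part in them was not tested.

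**Figure D1:**
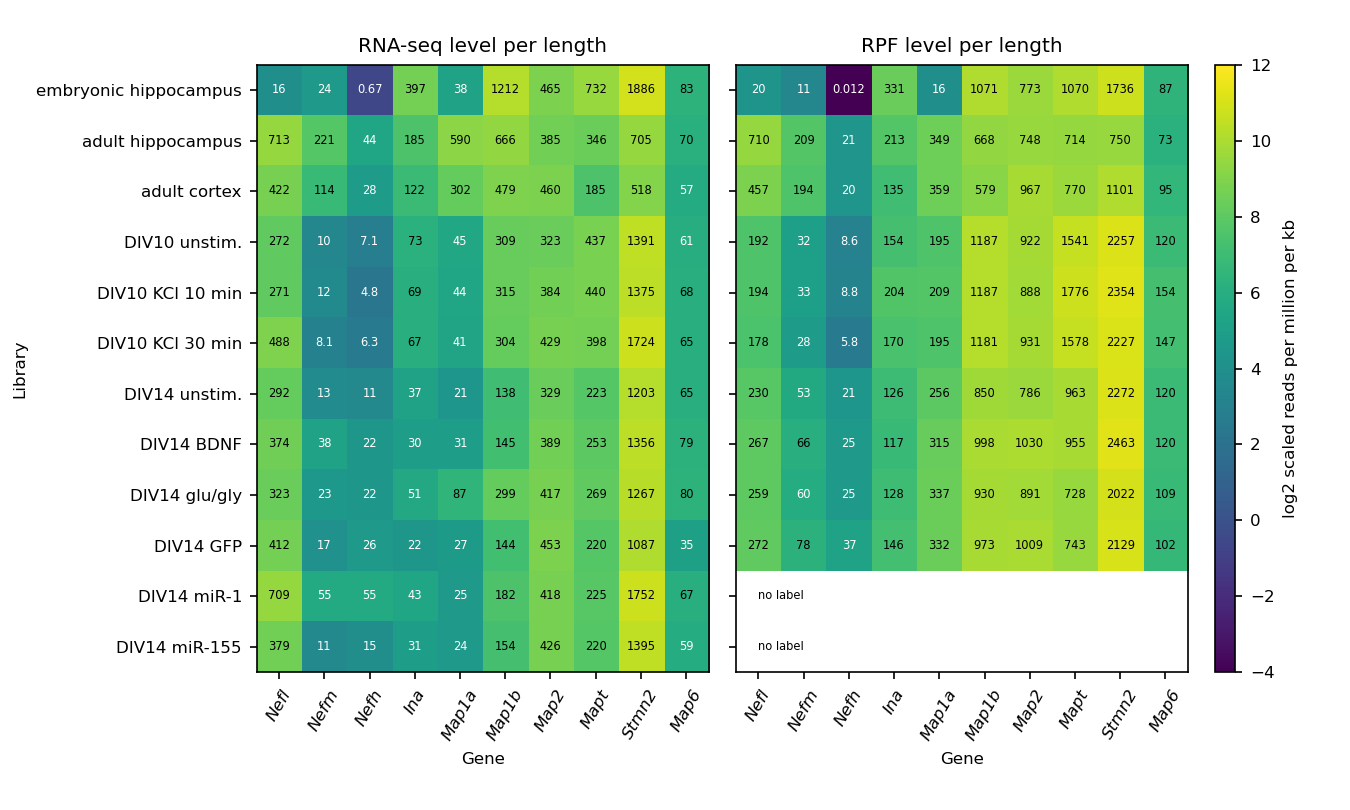
RNA-seq level (left) and RPF level (right) of each gene in each library, printed in scaled RPKM and coloured on a log2 scale. Nefl, Nefm, Nefh and Map1a are dark (low) in embryonic hippocampus and lighter (higher) in adult tissue, and Map2 RNA stays between 323 and 465 throughout; no RPF library is shown for miR-1 and miR-155, whose RPF labels contradict themselves.

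The genes differed widely in how much their RNA varied (see the heat map of levels). Across 12 RNA-seq libraries the highest level was 83.1 times the lowest for Nefh, 45.6 times for Nefl, 28.1 times for Map1a, 27.4 times for Nefm and 18.1 times for Ina. At the steady end were Map6 with 2.39 times and Map2, the dendritic protein, with 1.44 times. Map2 RNA lay between 323 scaled RPKM in unstimulated DIV10 cultures and 465 in embryonic hippocampus, and no 2 neighbours in the order of its 12 libraries were separated beyond counting error. Those extremes themselves were separated, by a ratio of 1.44 (95% counting interval 1.32 to 1.57). Nefh, in contrast, ran from 0.666 in embryonic hippocampus to 44.3 in adult hippocampus and 55.3 in miR-1 cultures, and these were separated beyond counting error, while 11.4 and 7.11 in unstimulated DIV14 and DIV10 cultures were not. Per length, Stmn2 was the most abundant of the 10 RNAs in every library except adult hippocampus, where Nefl was (713 scaled RPKM against 705).

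The comparison of adult with embryonic hippocampus asks how the cytoskeletal mRNAs differ between the developing and the mature hippocampus. The light, medium and heavy neurofilament subunits and Map1a were far more abundant in the adult, and α-internexin, tau and stathmin-2 were less abundant. Nefl had 173 reads and 15.6 scaled RPKM in the embryo and 6530 reads and 713 scaled RPKM in the adult, a 45.6-fold difference (95% counting interval 39.2 to 53.4). Nefm had 413 and 3199 reads, or 23.7 and 221 scaled RPKM, and was 9.36-fold higher (8.45 to 10.4). Nefh had 15 and 826 reads, or 0.666 and 44.3 scaled RPKM, and was 66.5-fold higher (40.1 to 119). In the embryo, then, the heavy subunit was barely detected. Nefh was under 10 RPM there and was counted only through the adult library. Map1a, with 2389 and 30707 reads, was 15.5-fold higher in the adult (14.9 to 16.2). Its relative Map1b had 62219 and 28317 reads and differed by −0.86 on the log2 scale, short of 2-fold. The genes higher in the embryo were Ina (4040 and 1557 reads, 2.15-fold, 2.02 to 2.28), Mapt (6366 and 2485 reads, 2.12-fold, 2.02 to 2.22) and Stmn2 (6460 and 1999 reads, 2.67-fold, 2.54 to 2.81). Map2 (−0.27) and Map6 (−0.23) stayed near the median gene, whose log2 ratio was −0.13. With at least 2-fold counted as a difference, 4 of the 10 genes were higher in the adult, where 22.5% of all 8367 genes were, and 3 were lower, where 22.4% were.

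**Figure D2:**
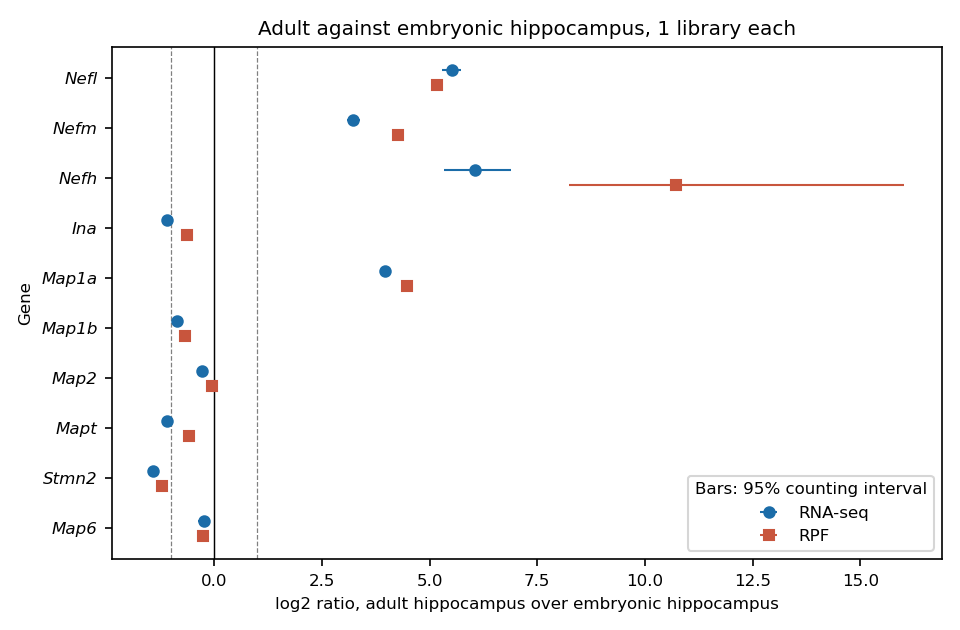
Log2 ratio of adult to embryonic hippocampus for each gene, RNA-seq and RPF, with 95% counting intervals and dashed lines at 2-fold. Nefl, Nefm, Nefh and Map1a lie far to the right in both assays, the wide bar belongs to Nefh RPF (1 read in the embryo), and the other 6 genes lie at or below 0.

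RPFs gave the same 4 genes at higher levels in the adult. Nefl went from 783 to 22048 RPF reads (36.2-fold), Nefm from 683 to 10269 (19.3-fold) and Map1a from 3539 to 61711 (22.4-fold). Nefh went from 1 to 1307 reads, a ratio that this single read leaves anywhere between 301 and 66485. Stmn2, with 21502 and 7214 RPF reads, was 2.32-fold lower. Ina (−0.63), Mapt (−0.58) and Map1b (−0.68) were lower by less than 2-fold, and Map2 was level (−0.05). Thus 4 of 10 genes were higher and 1 lower, against 28% and 27.5% of all genes. The sequencing of tails, which counts mRNA ends, gave 0 tags for Nefl, Nefm and Map1a in the embryo and 9, 36 and 21 in the adult. Against a floor of 3 tags these are at least 1.28-fold, 5.12-fold and 2.98-fold higher. Stmn2, with 162 and 136 tags, differed by −1.48 on the log2 scale after scaling, and Mapt, with 48 in both, by −1.23.

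The balance among the mRNAs of related proteins differed with age in both RNA-seq and RPFs. Per unit length, embryonic hippocampus held 25.4 Ina mRNAs per Nefl mRNA and adult hippocampus 0.259. In RPFs the ratio was 16.9 and 0.300. Map1a stood at 0.0314 per Map1b in embryonic RNA and at 0.885 in adult RNA, and in RPFs at 0.0145 and 0.523. Adult cortex resembled adult hippocampus in these ratios, with 0.288 Ina per Nefl and 0.630 Map1a per Map1b in RNA. Between the adult tissues, RNA of no gene differed 2-fold (log2 cortex over hippocampus −0.97 to 0.26), where 6.75% of all genes were higher in cortex and 10.9% lower. RPFs differed by −0.66 to 0.55, again with 0 genes at 2-fold (9.68% and 7.91% of all). The low end in RNA was Map1a (−0.97), whose RPF level was alike (0.04).

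Other cytoskeletal genes were counted for the same age comparison, to be read against the 22.5% of all genes that were higher in the adult and the 22.4% that were lower. Of 7 measured other intermediate-filament genes, 2 were at least 2-fold higher in adult hippocampus (Gfap of astrocytes, log2 3.84, and Synm, 2.37) and 4 lower (among them the progenitor filament Nes, −6.35, and the lamin Lmnb1, −5.55). Of 16 other structural microtubule-associated proteins, 4 were higher, such as Tppp of oligodendrocytes (4.77) and Map7 (4.64), and 1 lower, doublecortin of migrating neurons (Dcx, −5.99). Of 16 microtubule-end and severing proteins, 1 was higher (Mapre3, 2.24) and 7 lower, among them Dpysl3 (−4.85) and Crmp1 (−2.14). Of 16 kinases and their activators, 3 were higher (Cdk5r2, an activator of Cdk5, 3.65) and 2 lower. Of 15 motor subunits, 3 were higher, such as Kif5a, a kinesin that moves neurofilaments (2.96), and 0 lower.

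Unstimulated DIV14 cultures were set against adult cortex to ask how closely cultured cortical neurons match the tissue. RNA of both Map1 genes and of Nefm, Nefh and Ina was lower in culture, and that of stathmin-2 was higher. Map1a had 3954 reads in cortex (302 scaled RPKM) and 103 in culture (21.0), a log2 ratio of −3.84. Nefm had 416 and 18 reads (114 and 13.2 scaled RPKM, −3.11). Map1b (−1.80), Ina (−1.73) and Nefh (−1.28) were also at least 2-fold lower, and Nefl, with 973 and 252 reads (422 and 292 scaled RPKM), was not (−0.53), so that 5 of 10 genes were lower, against 24% of all genes. Nefm and Nefh were under 10 RPM in culture and entered only through the cortex library. Stmn2, with 370 and 321 reads (518 and 1203 scaled RPKM), was the single gene at least 2-fold higher (1.22), against 10.6%. RPFs differed less. Map1a had 23039 and 10188 RPF reads (−0.49), Map1b had 30337 and 27687 (0.56) and Ina had 1399 and 812 (−0.10). Only Nefm remained at least 2-fold lower in RPFs (3456 and 588 reads, −1.87) and only Stmn2 higher (1.05), where 9.37% and 6.98% of all genes were. In tail tags, Map1a had 150 and 56 (−2.29 after scaling), Nefm 130 and 80 (−1.57) and Map1b 565 and 931 (−0.15). Nefh had 20 and 29 tags before scaling, in libraries of 599907 and 1042761 tags, and was not 2-fold lower after it. Map6 had 9 and 47 tags before scaling, beside 56.7 and 65.4 scaled RPKM in RNA.

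The RNA-seq difference between culture and cortex moved with the length counted. The median log2 ratio of all genes was 0.50 for genes under 1000 nt, 0.07, −0.49 and −1.02 in the bins between, and −1.41 for those of at least 6000 nt. In RPFs the same bins had medians between −0.07 and 0.16. Set against 262 genes of at least 6000 nt, Map1a still lay 2.43 below their median on the log2 scale and was lower than 256 of them. Map1b lay 0.39 below and was lower than 171. The part of length in the culture values was not tested further. Within the cultures the subunits stood in other proportions than in cortex: per unit length, Nefm RNA was 0.271 of Nefl RNA in cortex, 0.0383 at DIV10 and 0.0453 at DIV14, and in RPFs 0.424, 0.168 and 0.231. Map1a per Map1b was 0.630 in cortex RNA and 0.147 and 0.153 in the cultures, but 0.620, 0.164 and 0.300 in RPFs.

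Most of these mRNAs were translated more efficiently than the median gene. On the log2 scale, centred on the median gene of each library, 79 of 89 values in 10 libraries were above 0. These values repeat the same 10 genes and are not independent. Cultures gave 60 of them, 55 above 0, and tissues 29, 24 above 0. Map2 kept the narrowest range, 1.11 to 1.86, while its RNA also varied least. Mapt lay between 0.92 in embryonic hippocampus and 2.56 in DIV10 cultures with 30 min of KCl. Stmn2 lay between 0.25 and 1.53, with both hippocampi (0.25 and 0.46) below the other 8 libraries. Nefl was lower, between −0.88 and 0.70, and Nefm was at −0.76 in embryonic hippocampus, 0.29 in adult hippocampus and 1.20 in adult cortex. Map1a had the widest range. It was −0.91 in embryonic hippocampus (percentile 21.3 of all genes), −0.38 in adult hippocampus (35.6), 0.69 in adult cortex (76.9), 2.44 in unstimulated DIV10 and 4.04 in unstimulated DIV14 cultures (99.8). Map1b went the same way, from 0.19, 0.38 and 0.71 in the tissues to 2.29 and 3.07. Because genes of at least 6000 nt had a median TE of −0.84 to −1.11 in the tissues and of 0.12 to 0.36 in the cultures, the Map1 genes were also set against that median. Map1a then stood at −0.07 in embryonic hippocampus, 0.73 in adult hippocampus, 1.68 in adult cortex, 2.10 at DIV10 and 3.73 at DIV14, where 0 of 216 long genes had a higher TE. Map1b stood at 1.03, 1.49, 1.71, 1.94 and 2.76. TE holds the RNA-seq value in its denominator, so a low RNA count raises it: the DIV14 value of Map1a rests on 103 RNA reads.

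Between ages, TE of 1 of 9 measured genes differed at least 2-fold, that of Nefm (log2 1.04, higher in adult hippocampus), where 10.8% of all genes were higher and 11.3% lower. The other 8 lay between −0.34 (Nefl) and 0.52 (Map1a). Between DIV14 cultures and adult cortex, Map1a (3.30), Map1b (2.30) and Ina (1.58) had at least 2-fold higher TE, 3 of 8 genes against 14.7% of all, and 0 were lower, against 3.52%. Adult cortex against adult hippocampus gave TE differences of −0.07 to 0.99 (0 of 10 genes at 2-fold, 7.36% and 5.63% of all), with Mapt, Map1a and Stmn2 nearest the threshold (0.99, 0.99 and 0.98). RNA was poly(A)-selected in the hippocampus and rRNA-depleted in the cortex, so tissue and preparation cannot be told apart here.

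Between DIV10 and DIV14, Map1b and its relative Map1a were lower in RNA at DIV14. The libraries compared were controls of separate stimulation experiments, 1 library each, so day in vitro and culture set cannot be told apart. Map1b had 2965 reads at DIV10 and 551 at DIV14 (309 and 138 scaled RPKM, log2 −1.16), and Map1a had 534 and 103 (45.4 and 21.0, −1.11). Ina (139 and 29 reads, −0.997) and Mapt (710 and 151, −0.97) came just short of 2-fold. These were 2 of 8 measured genes, where 3.87% of all genes were lower and 3.26% higher. RPFs gave no 2-fold difference (4.26% of all genes higher, 3.01% lower). Their log2 ratios were −0.48 for Map1b, −0.68 for Mapt and 0.39 for Map1a, the last in the opposite direction to its RNA. The TE of Map1a was 1.53 higher at DIV14, the only one of 8 past 2-fold (1.02% of all genes higher, 0.289% lower), and those of Ina and Map1b were 0.73 and 0.71 higher. Poly(A) tags gave 0.067 for Map1b and −0.25 for Map1a. Median RNA change of 247 long genes was −0.22, and Map1a lay 0.89 below it.

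Stimulation for 30 min was read against unstimulated DIV14 cultures, a library that BDNF and glu/gly share as control. Each stimulus raised 5 of 5 measured immediate-early genes at least 2-fold in RNA, led by Npas4 (log2 5.98 with BDNF, 5.20 with glu/gly) and Fos (5.09 and 4.49). The list held 8 genes, and those under 10 RPM in both libraries were not counted. A gene under 10 RPM in the control could enter only through the stimulated library, so such a share does not measure how many responded. After glu/gly, Map1a RNA went from 103 to 483 reads, or 21.0 to 87.3 scaled RPKM, a 4.15-fold increase (3.35 to 5.19). Map1b went from 551 to 1351 reads, or 138 to 299 scaled RPKM, 2.17-fold (1.96 to 2.4). They were the 2 of 10 genes at least 2-fold higher, where 3.14% of all genes were; 0 were lower, against 1.09%. The other 8 had log2 ratios of 0.08 (Stmn2) to 0.96 (Nefh, 20 and 44 reads), and all 10 lay above the median of all genes, 0.04. Nefm and Nefh were under 10 RPM in the control and entered only through the glu/gly library. RPFs did not follow. Map1a had 10188 RPF reads without and 8324 with glu/gly, which after scaling is a log2 ratio of 0.40, and Map1b had 27687 and 18736 (0.13). The highest RPF ratio of the 10 was thus 0.40 and the lowest −0.40 (Mapt), with 0 genes at 2-fold (0.245% of all higher, 0.123% lower). The TE of Map1a was 1.66 lower on the log2 scale, past 2-fold where 0.909% of all genes were lower and 0.444% higher. That of Map1b differed by −0.997, just inside 2-fold. Poly(A) tags on Map1a numbered 56 and 76 (log2 0.83 after scaling), and on Map1b 931 and 768 (0.11).

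**Figure D3:**
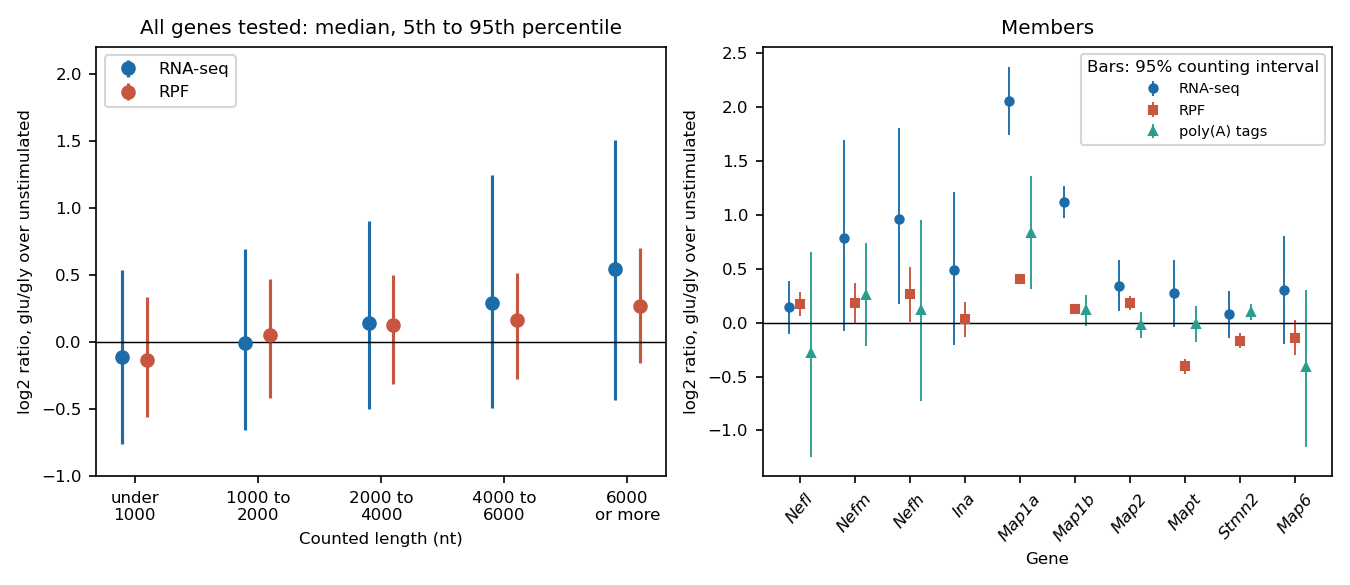
Left, median log2 ratio (points) and 5th to 95th percentile (bars) of glu/gly to unstimulated DIV14 cultures for all genes in bins of counted length, RNA-seq and RPF. Right, the same ratio for each of the 10 genes in RNA-seq, RPF and poly(A) tags with 95% counting intervals; Map1a (2.05) and Map1b (1.12) stand highest in RNA-seq and lie at 0.40 and 0.13 in RPF.

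As between culture and cortex, the RNA-seq ratio after glu/gly rose with counted length: the medians of the 5 length bins were −0.11, −0.01, 0.14, 0.29 and 0.54 in RNA and −0.13 to 0.27 in RPFs (see the plot of glu/gly ratios by length). Among 239 genes of at least 6000 nt, Map1a lay 1.51 above the median RNA ratio and was exceeded by 2, and Map1b lay 0.58 above and was exceeded by 29. In TE, 2 of 209 long genes had a lower ratio than Map1a and 11 a lower one than Map1b, with a median of −0.21. The part of transcript length in these values was not tested further.

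With BDNF, Nefm was the one gene past 2-fold in RNA, from 18 to 48 reads (2.87-fold, 1.64 to 5.25), where 1.03% of all genes were higher and 1.19% lower. Nefm and Nefh were under 10 RPM in the control and entered only through the BDNF library. Neither could well have been counted as lower, so this call does not measure a response. The RPF ratio of Nefm was 0.32 and its tag ratio 0.07 (80 and 84 tags). Nefh had 20 and 36 RNA reads (0.95). The other genes lay between −0.29 (Ina) and 0.57 (Map1a), and RPFs of all 10 between −0.11 and 0.39, with 0 at 2-fold (0.302% and 0.213% of all). TE of the 8 measured genes differed by −0.30 to 0.15, also with 0 at 2-fold (0.213% and 0.383% of all). KCl was read against unstimulated DIV10 cultures, which its 10 and 30 min libraries share. After 10 min the 8 measured genes had RNA ratios of −0.07 to 0.25, with 0 at 2-fold (0.306% and 0.45% of all). RPFs differed by −0.05 to 0.41 and TE by −0.30 to 0.48, with 0 at 2-fold (0.036% and 3.82% of all in RPFs, 0.528% and 5.15% in TE). KCl at 30 min raised 3 of 3 measured immediate-early genes at least 2-fold, from the same list of 8 under the same filter. Among the set, the largest ratio at that time was that of Nefl, with 563 and 651 reads (0.84, tags 20 and 45, 0.77), while its RPFs differed by −0.11. The 7 others lay between −0.15 and 0.41, again 0 at 2-fold (1.64% and 3.22% of all). RPFs of all 8 lay between −0.11 and 0.30 (0.178% and 3.84% of all) and TE between −0.77 for Nefl and 0.45 for Ina (1.7% and 4.61% of all), with 0 at 2-fold.

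The transduced cultures were measured with few reads for Nefm, Nefh and Ina. GFP cultures had 39 Nefh reads against 20 without virus (2.25-fold, 1.28 to 4.08), the 1 gene past 2-fold (1.14% of all higher, 2.28% lower). Its RPF ratio was 0.82 and its tag ratio 1.02 (29 tags without virus and 22 with, before scaling). Nefh was under 10 RPM without virus and entered only through the GFP library. The culture without virus was the control of BDNF and glu/gly. Whether it shared a batch with GFP was not given, so virus and culture set cannot be told apart. The next largest RNA ratio was that of Map6 (59 reads without virus and 27 with, −0.92). RPFs of 9 measured genes and TE of 7 gave 0 at 2-fold (0.281% and 0.73% of all in RPFs, 0.583% and 0.723% in TE). miR-1 cultures were set against GFP, which is also the control of miR-155. Nefm had 20 reads with GFP and 136 with miR-1 (3.26-fold, 2.03 to 5.51) and Nefh 39 and 175 (2.15-fold, 1.51 to 3.13). These 2 of 10 were past 2-fold (1.68% of all higher, 1.76% lower). Ina (0.99) and Map6 (0.95) came just short of it. Nefm and Ina were under 10 RPM with GFP and entered only through the miR-1 library, so neither could well have been counted as lower. Nefl was 0.78 higher in RNA, and tags gave 1.05 for Nefl, 0.97 for Nefm and 0.67 for Nefh. With miR-155 no gene reached 2-fold (−0.81 for Nefh to 0.76 for Map6, 0.389% and 1.04% of all).

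The seed of a microRNA, bases 2 to 8, pairs with target mRNAs, and among the 10 genes 1, Map2, had the letters AGCATTA, the match to the seed of miR-155, in its 3′ UTR (searched on the transcript strand). A match of this kind was present in 7.99% of all transcripts. The mature miR-155-5p of RefSeq (chr16:84714143-84714165, plus strand) is shown with its seed in capitals. The matches at chr1:66440601-66440622 and chr1:66442002-66442023 follow, with the matched letters in capitals, because Map2 alone of the set had this match. Shorter matches, and matches to miR-1, are not given here.
miR-155-5p: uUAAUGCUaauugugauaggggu
Map2 first match: aaggcagAGCATTAtcaaaccg
Map2 second match: caaatgtAGCATTAtgtcagtg
Map2 had 309 RNA reads with GFP and 1354 with miR-155, 453 and 426 scaled RPKM, a log2 ratio of −0.09. Its tags numbered 361 and 508 (0.20 after scaling), and its mean tail was 115.6 and 110.5 nt. A match of letters is a description and no evidence of binding.

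Poly(A) tails of the genes with enough tags were long for the library they were in when measured by TAIL-seq, but not in the hippocampi. In TAIL-seq libraries 47 of 50 values resting on at least 50 tags were above the median gene of that library. These values repeat a few genes. Map1b, Map2, Mapt and Stmn2 each had a value in all 9 cultures, and Nefl, Nefh and Ina had none in any library. Tau and stathmin-2 had the longest. Mapt tails averaged 124.3 nt in adult cortex and 119.9 to 131.7 nt in cultures, and those of Stmn2 118.6 nt and 115.2 to 128.0 nt. They ranked between percentiles 88.2 and 99.2 (Mapt) and between 86.9 and 95.2 (Stmn2) of all genes, whose median tail was 99.5 nt in cortex and 100 to 112 nt in cultures. Map1b tails measured 109.3 nt in cortex and 111.1 to 121.5 nt in cultures, and Map2 tails 100.1 nt and 106.3 to 117.9 nt. Map1a reached 50 tags in 4 of these libraries. Its tail was 90.1 nt in adult cortex, below the median gene, and 122.0, 124.5 and 121.4 nt in unstimulated, BDNF and glu/gly cultures at DIV14.

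Between DIV14 culture and adult cortex, Map1a (31.8 nt), Map2 (17.9), Nefm (13.3) and Map1b (12.2) had tails at least 10 nt longer in culture, and Stmn2 (9.4) and Mapt (5.9) were longer by less. The median gene was 12.4 nt longer, and 62.4% of all genes passed 10 nt (0.601% were shorter), so that 4 of 6 is near the background. Map1a and Map2 were the 2 that exceeded the median by over 5 nt. Between DIV10 and DIV14 the differences were 1.8 to 9.8 nt, beside a median of 6.93 nt, and 0 of 4 genes reached 10 nt (32.6% of all longer, 1.45% shorter). After glu/gly, 5 of 6 tails were shorter, by 0.5 nt (Map1a) to 8.6 nt (Map1b), beside a median of −4.68 nt, and Nefm was 8.0 nt longer, so 0 of 6 reached 10 nt (2.79% and 20.2% of all). GFP cultures had Map1b and Mapt tails 10.4 and 10.3 nt shorter than cultures without virus, beside a median of −8.45 nt (40.4% of all genes at least 10 nt shorter and 0.7% longer). Virus and culture set cannot be told apart there. With miR-1, Mapt was 11.8 nt longer than with GFP and Map2 9.3 nt shorter (5.09% and 14.9% of all). With miR-155 the 4 measured tails differed by −5.1 to 4.8 nt (6.79% and 8.47% of all past 10 nt). BDNF moved them by −5.0 to 4.2 nt (6.27% and 9.03% of all), 10 min of KCl by −4.7 to 1.5 nt (7.79% and 7.59%) and 30 min by −2.0 to 4.7 nt (11.8% and 4.23%), so that none of these reached 10 nt. In the hippocampi, PAL-seq values are multiples of 0.5 nt and were taken as medians. There 1 of 3 genes with enough tags, Stmn2, was above the median gene in each library. Stmn2 had 91.5 nt in the embryo and 77.5 nt in the adult and ranked at percentiles 96.2 and 96.4. Map2, at 46 and 40 nt, ranked at 7.2 and 10.5. Map1b went from 36 to 53 nt, or from percentile 1.9 to 44.9. Of these 3 genes, 1 (Map1b) was at least 10 nt longer in the adult, where 1.18% of 169 genes were, and 1 (Stmn2) was at least 10 nt shorter, where 50.3% were.

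Visual cortex asked whether 1 h of light after darkness changes mRNA levels and tails in living animals, and with 4 mice in each group it allowed a test. Light raised 8 of 8 measured immediate-early genes in tag counts, among them Fosb (log2 4.52), Nr4a1 (4.13) and Fos (3.91). Of the 10 cytoskeletal genes, 8 passed the expression filter, and edgeR's quasi-likelihood test called 0 of them (116 of 9554 genes, or 1.21%, rose and 12, or 0.126%, fell). An unadjusted p under 0.05 was given to 2 of the 8, as to 903 genes in all. Nefm had 338, 277, 250 and 371 CPM (TMM-scaled tag counts-per-million) in the dark and 388, 469, 581 and 269 in the light (means 309 ± 55.3 and 427 ± 132, SD, n = 4). Light mouse 4 was below 3 of the dark mice, so the groups overlapped. The log2 difference was 0.47 (SE 0.16), with a Benjamini-Hochberg adjusted p of 0.253 in edgeR. It passed the threshold without that mouse, whose removal ends the overlap (0.64, adjusted p = 0.0075), and when genes of low counts were kept (0.47, adjusted p = 0.00394). With any other mouse left out it did not pass. An exact two-sided permutation test on the CPM of Nefm gave p = 0.143. Map6 had 8.11, 10.0, 14.5 and 10.3 CPM in the dark and 19.7, 13.5, 15.6 and 16.9 in the light (10.7 ± 2.71 and 16.4 ± 2.57, SD, n = 4), a log2 difference of 0.62 (SE 0.28) with an adjusted p of 0.481 in edgeR. Its groups overlapped through dark mouse 3 and light mouse 2. The remaining 6 lay between −0.21 (Nefh) and 0.08 (Map1b), with adjusted p from 0.851 to 0.996 in edgeR. Nefl, at 4 to 20 tags, and Ina, at 0 or 1, were below the filter. Of the other cytoskeletal lists, 0 of 6 intermediate-filament genes, 17 structural microtubule-associated proteins, 16 end and severing proteins, 14 kinases and 14 motor subunits were called.

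**Figure D4:**
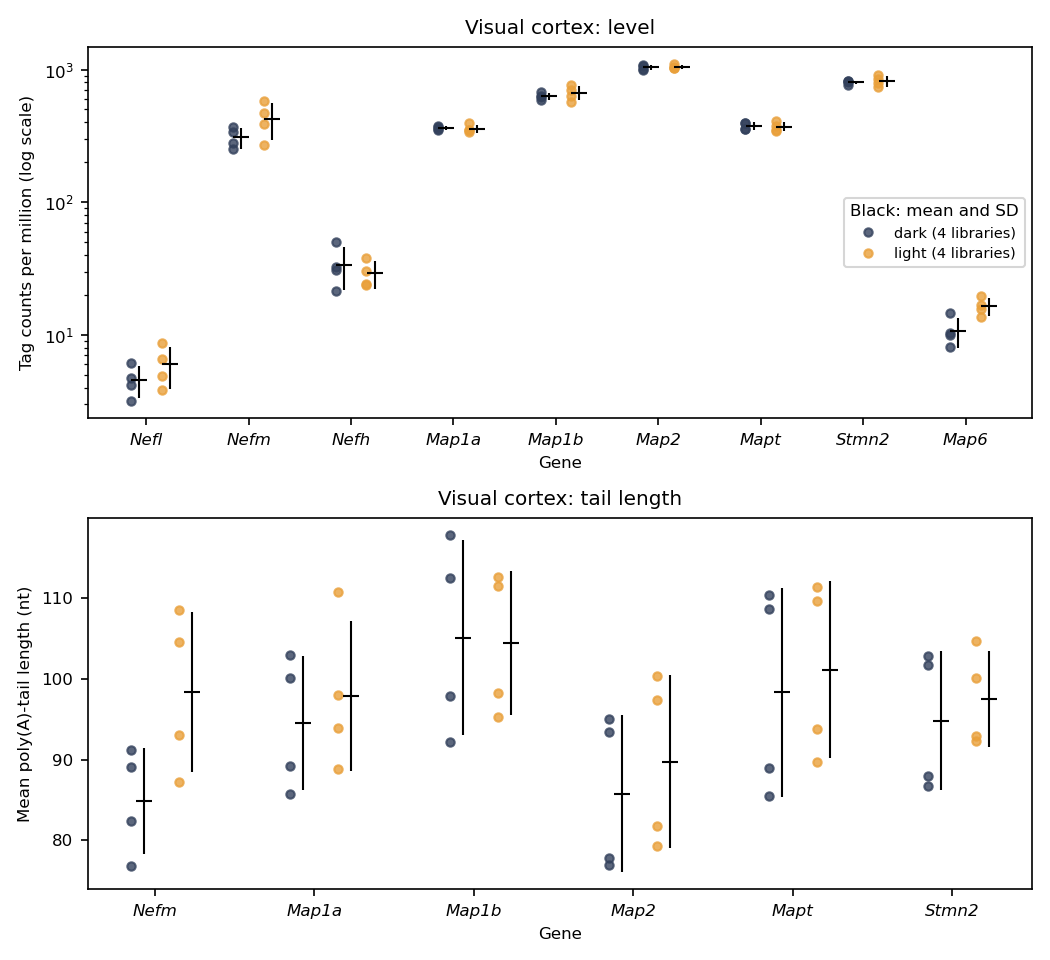
Top, poly(A)-tag CPM (log axis) of the 9 genes other than Ina, and bottom, mean tail length in nt of the 6 genes with enough tags, in 4 dark and 4 light libraries (points), with the mean and SD in black. Nefm is the gene whose groups stand farthest apart in tail length, with dark mice at 76.8 to 91.2 nt and light mice at 87.2 to 109 nt, and the groups overlap.

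Tail lengths in visual cortex could be tested for 6 genes of the set, and limma called 0 (10 of 4321 genes, or 0.231%, had longer tails in the light and 0 shorter). Nefm tails averaged 91.2, 89.0, 82.4 and 76.8 nt in the dark and 93.01, 105, 109 and 87.2 nt in the light, a difference of 13.5 nt (95% interval 0.40 to 26.6, adjusted p = 0.999 by limma). An exact two-sided permutation test gave p = 0.0857 for Nefm alone, where the smallest that 4 against 4 allows is 0.0286. The libraries themselves differed: the tail of the median gene was 92.4, 90.7, 77.5 and 80.0 nt in the dark and 83.3, 94.1, 97.5 and 81.7 nt in the light, and the median shift of all genes was 3.75 nt. Relative to each library's median, Nefm was 9.48 nt longer in the light (adjusted p = 0.227 by limma). The tails of Map2 (3.93 nt), Map1a (3.39), Mapt (2.80), Stmn2 (2.66) and Map1b (−0.70) differed by close to that shift or less.

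Likeness to other genes was measured as the mean absolute difference between centred log2 RNA levels over the 12 tissue and culture libraries, among 5115 genes. It is given for 3 genes of the set. Nearest to Nefh were Tuba4a, an α-tubulin (0.33), Scn2b, a sodium-channel subunit (0.37), and Pex5l (0.41), where the median gene stood at 1.28. Nearest to Stmn2 were Prdx2 (0.14), Cirbp (0.15) and Epha3 (0.16), where the median gene stood at 0.51. Nearest to Map1b were Khsrp (0.17), Celf2 (0.19) and Sos1 (0.19), where it stood at 0.88.

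For the culture comparisons, the other cytoskeletal lists were counted in RNA at 2-fold. Between DIV14 culture and adult cortex, where 10.6% of all genes were higher and 24% lower, 2 of 5 other intermediate-filament genes were higher in culture (Nes 5.57, Vim 5.51) and 0 lower. Of 16 structural microtubule-associated proteins 3 were higher (Dcx 2.47) and 5 lower (Mtcl1 −2.68), and of 14 end and severing proteins 2 were higher (Dpysl3 3.42) and 2 lower. Of 16 kinases and activators 7 were lower, and of 15 motor subunits 5, among them Kif5a (−2.52) and Klc2 (−2.49), while 0 of either list were higher. Between DIV14 and DIV10, where 3.26% of all genes were higher and 3.87% lower, 0 of 6 intermediate-filament genes were higher and 2 lower, 2 of 15 structural proteins higher (Map7 2.26, Tppp 1.70) and 2 lower (Dcx −1.66, Macf1 −1.06), and 0 of 13 end and severing proteins higher and 2 lower (Crmp1 −1.11, Dpysl3 −1.04). None of the 15 kinases and 15 motor subunits measured there was past 2-fold. In RPFs of DIV14 culture and adult cortex, 0 of the kinases and 1 of the motor subunits were lower, against 9.37% of all genes. With glu/gly 1 gene of all these lists was past 2-fold, Cdk5r2 (1.35, with 3.14% of all genes higher), and with BDNF 1, Mtcl1 (1.15, with 1.03% higher).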

How the data were processed

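Reads of 12 RNA-seq and 12 RPF libraries, deposited as raw counts and as RPM per gene, were placed by the authors on the reading frame of 1 transcript per gene in mm10, without its first 50 nt. The submitters' processing notes name STAR 2.4.2 and bedtools, and whether counting used strand was not given in the sources used here. Tail files, made by the authors, hold tag counts and mean or median tail lengths per gene from TAIL-seq or PAL-seq v2. A deposited table of log2 TE was used as an alternative to TE recomputed from RPM; its other columns were not used. Of 17158 accessions, 17010 were matched to a symbol through RefSeq tables (GRCm38.p6). The titles of the 2 RPF libraries of miR-1 and miR-155 contradict themselves, and these entered no comparison.

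Single libraries were scaled by the median of ratios, and a ratio was given an exact (Clopper-Pearson) interval at 95%, which covers counting error only. Genes needed 10 RPM (RNA, either library) and a difference of at least 2-fold, or of 10 nt with 50 tags in both libraries, to be counted as different. A gene under 10 RPM in 1 library entered through the other, so it could hardly be counted in the opposite direction. TE was log2 of RPF over RNA RPM, for genes with at least 10 RPM of RNA in that library, centred on the median gene. Light and dark mice were compared with edgeR 4.0.16 (counts, TMM, quasi-likelihood) and limma 3.58.1 (mean tail, genes with 50 tags in all 8 libraries) in R 4.3.3, with Benjamini-Hochberg adjustment at 0.05. On simulated light data 93% of genes changed by log2 2 and 76% of those changed by log2 1 were recovered, and for tails 98% at 40 nt and 27% at 20 nt. Genes named beyond the 10 are those of each list with the largest differences in each direction. The 10 genes and the lists were chosen with earlier results of these data known. The alternatives tried were other scalings, minimums, pseudocounts, tools and left-out mice. The 6 cultures with stated batches came from 2 batches of 3 whose members are not named, so batch was not used.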

Additional observations from a re-analysis of the deposited data

Results flagged for a closer look

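RPF libraries of the miR-1 and miR-155 cultures entered no comparison, because the prefix and the text of each title name different microRNAs, and the 10 genes had signal in both. The first held 12446 RPF reads on the 10 genes of 817114 on all listed genes, and the second 97084 of 6428048. In RPKM of the reads on listed genes, Nefl stood at 402 and 222, Nefm at 149 and 38.8, Nefh at 41.8 and 14.7 and Stmn2 at 3142 and 2468. The neurofilament genes were thus higher in the first library. Which of the cultures it came from cannot be told apart from these titles.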

How the results depend on the processing

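In the 10 comparisons of single libraries with tails by one method, 21 RNA differences of at least 2-fold were found among the genes of the set. In poly(A) tags 6 of these 21 were again past 2-fold in the same direction, and 2 more were by their lower bound (Nefm and Map1a between adult and embryonic hippocampus). Another 9 were not, and 4 had 0 tags in a library and a bound under 2-fold. The cause was not tested. Counting instead every gene of the set past 2-fold in tags, with a tag in both libraries, gave 8: 2 for adult against embryonic hippocampus (7 in RNA), 0 for DIV14 against DIV10 (2), BDNF (1) and glu/gly (2), and 1 for miR-1 (2), which was Nefl and not one of the genes past 2-fold in RNA. Map1b between DIV14 and DIV10 turned to 0.067 with tags. Scaling by total reads gave 4 in place of 2 between DIV14 and DIV10, and a minimum of 30 RPM gave 0 for BDNF and GFP, where fewer genes were tested. TE differences went from 1 to 0 (adult against embryonic), 0 to 3 (cortex against hippocampus) and 1 to 2 (glu/gly) at 30 RPM; without centring they went from 0 to 6 and from 1 to 2 in the last 2, and from 6 to 13 in all. Tail differences of 10 nt, 9 in all, became 4 relative to the median shift (adult against embryonic 1, DIV14 against cortex 1, glu/gly 1, GFP 0), where Map1b between DIV14 and cortex turned to −0.21 nt. At 100 tags, adult against embryonic hippocampus gave 1 and DIV14 against cortex 2. At 20 tags the total was 30, with 4 for DIV14 against DIV10, 1 for BDNF, 2 for glu/gly and for 10 min of KCl, 3 for 30 min, 5 for GFP and 4 for miR-1. In visual cortex, expression called 0 genes of the set and 1 (Nefm) without the filter, and 0 to 1 when a mouse was left out, with 192 genes called in all without the filter and 100 to 150 with a mouse left out. Calls on tails went from 10 to 1 on a log2 scale and 3 relative to each library's median, and from 1 to 21 with a mouse left out. Same-numbered dark and light mice did not deviate together (correlations −0.20 to 0.03 in expression and −0.11 to 0.04 in tails), so the numbers do not pair them. A replicate block called 113 genes in expression and 1 in tails, 0 of them in the set; Nefm then had a log2 difference of 0.43 and an adjusted p of 0.513 (edgeR), and DESeq2 gave it 0.773. Depth limits Nefm, Nefh and Ina most, which had under 50 RNA reads in several cultures.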
